A study of Mus musculus with 4 samples.

Results

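MicroRNA precursor genes were described in the RNA of dissected mouse heart valve primordia. The members were chosen by their read counts: they were the rows of the count table whose gene symbol is Mir followed by a digit, or Mirlet7, and whose reads summed to 10 or more over 4 libraries. There were 184 such rows, out of 662 rows of that name pattern and 23337 gene rows in all. The reads that chose them are the same reads described here, so that a member has reads is not a finding, and a low row could enter through 1 high library.

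The tissue was the cardiac cushion of the outflow tract and atrioventricular canal at embryonic day 14.5, from C57BL/6 embryos. One group of 2 libraries came from wildtype littermates, and the second of 2 libraries from Nfatc1Cre;Brg1F/F mutants, in which a Cre recombinase driven from the endocardial gene Nfatc1 recombines floxed Brg1 (Smarca4), the ATPase of a chromatin remodelling complex. Dissection was guided by a Cre reporter that makes cells fluoresce green (GFP), and the series text calls the libraries 2 pairs. The labels do not say how many embryos were in a library. Because whole cushions were sequenced, a cell that never expressed Cre contributed RNA too, and fewer cells of a type cannot be told apart from less RNA per cell.

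MicroRNAs are short RNAs that lower the translation and stability of messenger RNAs matched by their seed, which is bases 2 to 8 of the mature strand. They are cut from hairpins in longer primary transcripts, first in the nucleus by Drosha with Dgcr8, then, after export by Xpo5, in the cytoplasm by Dicer1, and are loaded into Argonaute proteins. In the heart, Mir1 and Mir133 family microRNAs are known from muscle, Mir126 from endothelium, and Mir143 and Mir145 from smooth muscle.

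The rows do not measure mature microRNAs. The libraries were made from total RNA after removal of ribosomal RNA and the labels' protocols name no selection of small RNAs, so a read on a row overlapped a hairpin of 57 to 141 bases (median 84.0 over 181 rows with a position; Mir17hg, a host transcript of 3849 bases, was set apart). Such a read can come from the primary transcript, from a spliced or unspliced host gene, or from the hairpin. Levels per kilobase of such short rows are too high, since a read need only touch the row.

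The sequences of the let-7 family are shown because the only member past the threshold in any fit with all 4 libraries, Mirlet7a-1, belongs to it. Its hairpin lies on the minus strand at chr13:48538179-48538272 in GRCm38 (mm10), within an exon of the long noncoding gene 6720427I07Rik in the GENCODE M21 annotation. In the hairpin the capitals mark the 2 mature strands, and in the mature strands below it they mark the seed. All sequences are from RefSeq (GRCm38.p6).
Mirlet7a-1 hairpin: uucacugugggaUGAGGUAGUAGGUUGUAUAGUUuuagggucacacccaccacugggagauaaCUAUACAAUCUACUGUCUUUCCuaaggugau
let-7a-5p: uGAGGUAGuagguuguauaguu
let-7c-5p: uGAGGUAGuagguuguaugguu
let-7d-5p: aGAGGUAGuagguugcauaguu
let-7e-5p: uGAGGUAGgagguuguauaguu
let-7f-5p: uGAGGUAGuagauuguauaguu
let-7g-5p: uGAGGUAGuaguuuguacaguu
let-7i-5p: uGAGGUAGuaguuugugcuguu
miR-98-5p: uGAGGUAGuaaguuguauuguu

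The other sequences belong to rows among the most read or with the lowest unadjusted p, and capitals again mark the seed. The 2 miR-30 strands share a seed.
miR-30a-5p: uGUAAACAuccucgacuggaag
miR-30c-5p: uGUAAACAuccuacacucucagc
miR-16-5p: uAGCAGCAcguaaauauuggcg
miR-181b-5p: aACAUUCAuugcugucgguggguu
miR-335-5p: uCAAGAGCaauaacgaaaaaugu
miR-3064-5p: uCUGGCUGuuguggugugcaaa
miR-126a-3p: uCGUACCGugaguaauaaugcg
miR-1931: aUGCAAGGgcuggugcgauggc
miR-758-3p: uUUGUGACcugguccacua
miR-300-3p: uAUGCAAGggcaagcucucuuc

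A mature sequence was found for 164 of the 184 members, giving 284 strands with 235 different seeds, of which 29 were shared by 2 or more members. The seed GAGGUAG was shared by 9 members (Mir98, Mirlet7a-1, Mirlet7c-1, Mirlet7d, Mirlet7e, Mirlet7f-1, Mirlet7f-2, Mirlet7g and Mirlet7i). ACAUUCA was shared by 5 members of the Mir181 family, GUAAACA by 4 of the Mir30 family and AGCAGCA by Mir15a, Mir15b, Mir16-1 and Mir16-2. These seed counts, and the sums by seed below, cover only strands with a sequence. Mir30b and Mir30d had none, and for Mirlet7a-2 only the 3p strand was found.

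Reads assigned to genes numbered 19218820 and 15790338 in wildtype 1 and 2, and 22426537 and 14104458 in mutant 1 and 2. Of all counted entries, those in genes included, 51.8% to 54.4% were assigned to no counted feature and 16.1% to 17.0% had more than 1 alignment. The former can include reads in introns of genes, since the sources used here do not give the feature type counted. Smarca4 was at 241 ± 14.4 counts per 1000000 reads in genes (CPM) in wildtype and 261 ± 30.8 in mutant libraries (mean ± SD, n = 2), a log2 fold change of 0.11 ± 0.14 (SE). Its row sums the whole gene, so it does not measure the deleted part. The cushion mesenchyme and endocardium markers were present in all libraries, with summed levels of 6331 to 6975 CPM over 7 genes and 1011 to 1097 CPM over 7 genes, as were 6 cardiomyocyte markers at 51879 to 64419 CPM. The 7 leukocyte markers summed to 114 and 110 CPM in wildtype libraries, and in mutant libraries to 203 and 209 CPM. The 6 erythroid markers summed to 508, 529, 688 and 598 CPM and the 5 hepatocyte markers to 5.01, 4.80, 8.98 and 17.3 CPM in wildtype 1 and 2 and mutant 1 and 2, so these lists too were higher in both mutant libraries; their part in the values below was not tested. Y-linked genes summed to 593 CPM in mutant 2, 4.54 CPM in wildtype 2 and 0 in the other two libraries.

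MicroRNA rows were a small part of the libraries. Members held 4818 and 3313 reads in wildtype 1 and 2, and 4537 and 2490 reads in mutant 1 and 2, or 0.0251%, 0.0210%, 0.0202% and 0.0177% of gene reads. The median member had 26.5 reads in all, and 163 of 184 had reads in every library. Of the 662 rows with the name pattern, 304 had no read, 174 had 1 to 9 and 67 had 10 to 19. A further 93 had 20 to 99, 21 had 102 to 543 and 3 had 1422 to 2912. Just inside the rule, 31 rows had 10 to 12 reads, and just outside it 26 rows had 7 to 9. The top 3 rows held 42.0% of all member reads and the top 12 held 58.7%.

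The position of most members was inside another gene. GENCODE M21 placed 86 members in an intron and 41 in an exon of at least 1 transcript on the same strand, and 54 outside annotated genes; Mir17hg was itself a host transcript, and Mir5111 and Mir1940 had no position. Of these, 65 in introns and 22 in exons lay in protein-coding genes. Chromosome 12 held 39 members, 36 of them in the imprinted region between Dlk1 and Dio3 (chr12:109452823-110281097), chromosome 2 and the X chromosome held 15 each, and 75 members had another member within 10 kb.

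Mir17hg had the most reads. It is the primary transcript of a cluster of proliferation-linked microRNAs on chromosome 14. It had 844 and 684 reads in wildtype and 788 and 596 in mutant libraries, or 44.9, 43.2, 34.7 and 42.1 CPM. The mutant libraries were both below the wildtype ones, at a log2 fold change of -0.20 ± 0.16 (adjusted p = 0.962, edgeR quasi-likelihood test). Mir19a, from the same transcript, had 20, 27, 28 and 18 reads. Per kilobase Mir17hg was at 11.4 CPM in wildtype libraries, against 408 for Mirlet7a-1 and 346 for Mir3064, which are 94 and 67 bases long.

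**Figure D1:**
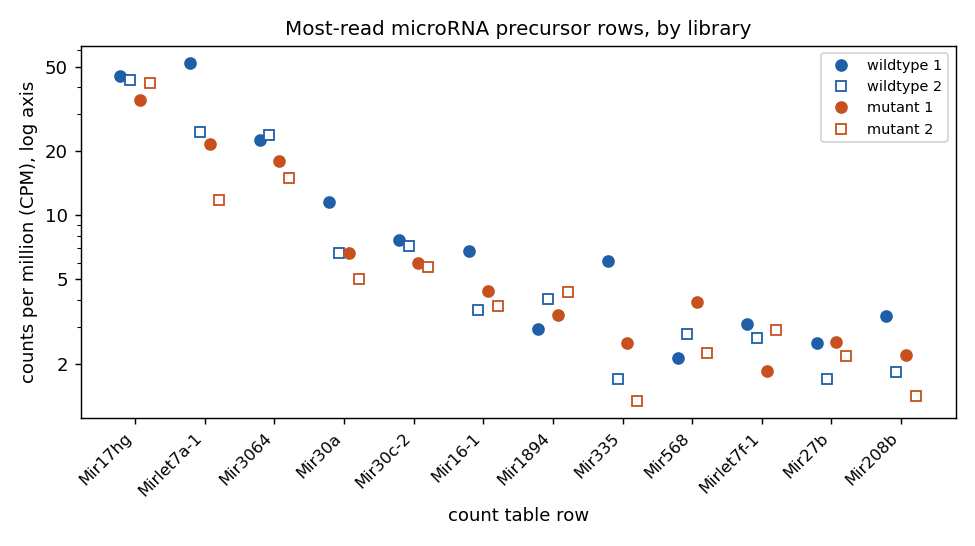
CPM (log axis) of the 12 most-read microRNA rows in each library, blue for wildtype, orange for mutant, filled circles for pair 1 and open squares for pair 2. Mirlet7a-1 spanned 11.8 to 52.1 CPM, and the mutant libraries of Mir3064 (15.0 and 17.9) lay below both wildtype ones.

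No member passed the threshold in the comparison of mutant with wildtype, which asked how loss of Brg1 in endocardial cells and their descendants changed the RNA of cushions. Of the 65 members with enough reads to be tested, 0 had an adjusted p under 0.05 by edgeR, where 9 of 14316 genes (0.0629%) did. At an unadjusted p under 0.05, 4 members were higher (Mir1931, Mir300, Mir3109 and Mir758; 3.88% of all genes) and 4 lower (Mirlet7a-1, Mirlet7f-2, Mir3064 and Mir181b-1; 1.9% of all genes) in mutant libraries. Both mutant libraries lay above both wildtype libraries for 9 of 65 members (17% of all genes) and below both for 13 of 65 (16.3% of all genes). A low row could be tested where only the libraries of 1 group held enough reads. This held through the mutant libraries for Mir1931, Mir300, Mir758, Mir126, Mir1949 and Mir341, all among the 9. It held through the wildtype libraries for Mir340, among the 13. The directions of these rows follow in part from the filter. DESeq2 called 0 of the 65 members, some of which it left without an adjusted p, where it called 62 of all genes (0.433%), and 1 member had an unadjusted p under 0.05. With the pair number as a block 1 member passed, Mirlet7a-1, against a background of 0.887% of genes, and without the low-count filter 1 of 184 members passed, the same row, against 1.18%.

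The median log2 fold change of the tested members was -0.20, with 25 positive and 40 negative values, where the median of all genes was -0.0027. For the same 65 members it was -0.03 without wildtype 1 and -0.05 without mutant 2. It was -0.25 without wildtype 2 and -0.26 without mutant 1. Over all 184 members without a filter it was -0.06, with 87 positive and 97 negative, the low rows accounting for the difference, since the 65 were at -0.20 in that fit. Within pair 1 the median log2 ratio was 0.028 and within pair 2 it was -0.20. Only 16 of 65 members were higher and 22 lower in both pairs, and 27 had opposite directions.

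**Figure D2:**
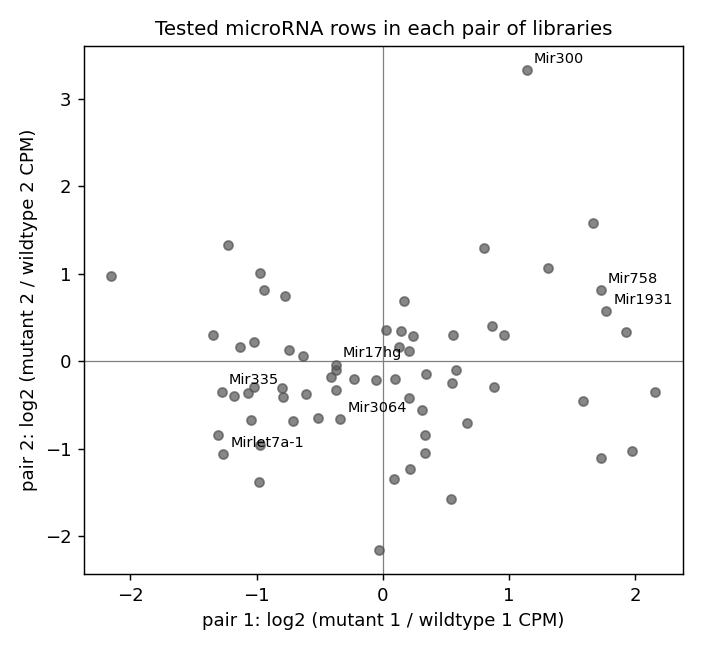
Log2 ratio of mutant to wildtype CPM of the 65 tested microRNA rows in pair 1 (x axis) and pair 2 (y axis), 1 point for each row. Rows in the lower left and upper right corners moved the same way in both pairs; 27 rows had opposite directions.

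The summed level of the members was 257 and 209 CPM in wildtype libraries and in mutant libraries 200 and 176 CPM. Without Mirlet7a-1 it was 204, 184, 178 and 164 CPM, and the mutant sums were below the wildtype sums in both cases. Without Mirlet7a-1 and Mir17hg it was 160, 141, 143 and 122 CPM, where mutant 1 lay above wildtype 2, so the order rests on these rows. The 119 small nucleolar and Cajal body RNA rows, measured in the same way, summed to 171, 220, 159 and 292 CPM, with overlapping groups.

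Of the 12 most-read rows, Mirlet7a-1 had the log2 fold change farthest from 0. The let-7 family is known to rise as cells differentiate and to be blocked by Lin28. The row had 978 and 391 reads in wildtype 1 and 2, and 492 and 167 in mutant 1 and 2, or 52.1, 24.7, 21.7 and 11.8 CPM. Both mutant libraries lay below both wildtype ones, but mutant 1 lay close to wildtype 2, and the wildtype libraries lay far apart. The log2 fold change was -1.19 ± 0.36 (SE; 38.4 ± 19.4 CPM in wildtype, 16.7 ± 6.97 CPM in mutant libraries; mean ± SD, n = 2), with an adjusted p of 0.497 by edgeR. It was -0.54 without wildtype 1, -1.63 without wildtype 2, -1.71 without mutant 1 and -0.83 without mutant 2.
Mutant over wildtype was 0.416 in pair 1 and 0.478 in pair 2, so the ratio was alike in both pairs. With the pair as a block the log2 fold change was -1.17 with an adjusted p of 0.00200, and the authors' deposited table lists -1.17 with an adjusted p of 9.42e-06, after turning its sign to mutant over wildtype. That table holds 7 microRNA rows, of which Mirlet7a-1 alone is past 0.05.

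The neighbouring hairpins had smaller log2 fold changes, a difference that was not tested. Mirlet7a-1, Mirlet7f-1 and Mirlet7d lie in 1 cluster of 2261 bases on chromosome 13. Mirlet7f-1 had 58, 42, 42 and 41 reads, a log2 fold change of -0.30 ± 0.34. Mirlet7d had 42, 22, 25 and 23 reads, at -0.45 ± 0.42. Their adjusted p was 0.979 each by edgeR, and Mirlet7f-1 and Mirlet7d held 9.02 and 5.52 reads for every 100 on Mirlet7a-1. Reads on Mirlet7a-1 outnumbered those on Mirlet7f-1 by 16.9-fold and 9.31-fold in wildtype 1 and 2, and by 11.7-fold and 4.07-fold in mutant 1 and 2.

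**Figure D3:**
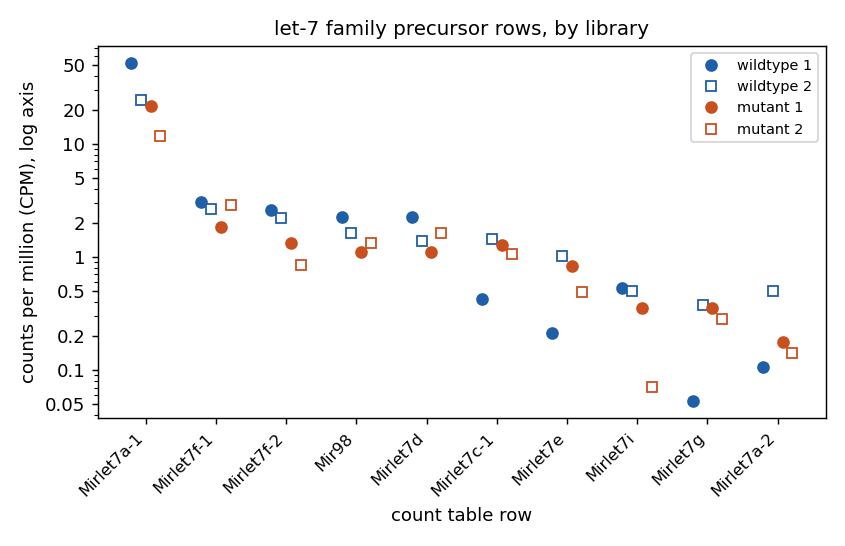
CPM (log axis) of the 10 let-7 family rows, Mir98 included, in each library (blue wildtype, orange mutant, circles pair 1, squares pair 2). Mirlet7a-1 was far above the other rows, and the libraries of Mirlet7f-1 and Mirlet7d overlapped between genotypes.

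Mirlet7f-2 and Mir98 sit in an intron of the X-linked ubiquitin ligase gene Huwe1. Mirlet7f-2 had 49, 35, 30 and 12 reads, and Mir98 had 42, 26, 25 and 19. Both rows were lower in both mutant libraries, at log2 fold changes of -1.12 ± 0.38 and -0.68 ± 0.39 with adjusted p of 0.637 and 0.940 by edgeR. Huwe1 itself was at 0.12 ± 0.15. Mirlet7c-1, Mirlet7e, Mirlet7g, Mirlet7i and Mirlet7a-2 had 75, 46, 19, 27 and 16 reads in all. Over the 10 let-7 rows, 2 of the 7 tested were positive and 5 negative, with a median of -0.45.

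Mir3064, in an exon of the RNA helicase gene Ddx5, had 425 and 377 reads in wildtype and 407 and 213 in mutant libraries, or 22.6, 23.8, 17.9 and 15.0 CPM. The log2 fold change was -0.49 ± 0.17 (adjusted p = 0.666, edgeR), and that of Ddx5 was -0.08 ± 0.14. Mir30a and Mir30c-2 lie on chromosome 1. Mir30a was at 11.5, 6.63, 6.65 and 5.01 CPM, with overlapping groups, and Mir30c-2 at 7.67, 7.19, 5.94 and 5.72 CPM, with mutant libraries lower. Their log2 fold changes were -0.63 ± 0.29 and -0.35 ± 0.22, neither past the threshold.

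The cardiac and striated muscle list, which takes in the Mir30 family, included several of the most-read members. Of its 12 members, 5 were tested, all 5 had negative values and 0 passed the threshold. Without a filter, 3 of the 12 were positive and 9 negative. Mir208b, in an intron of the slow myosin heavy chain gene Myh7, had 63, 29, 50 and 20 reads (log2 fold change -0.50 ± 0.40; Myh7 -0.02 ± 0.18). Mir133a-1 was at 2.40, 1.58, 1.06 and 1.20 CPM, with both mutant libraries lower, at -0.83 ± 0.40. Mir1a-2 overlaps Mir1b on the other strand, so without a known strand setting their reads cannot be told apart. The 6 cardiomyocyte marker genes had negative log2 fold changes of -0.45 to -0.02 in the same libraries, and their part in these values was not tested.

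The endothelial, smooth muscle and blood lists held 0 members past the threshold. Mir126, in an exon of the endothelial gene Egfl7, had 9, 5, 19 and 11 reads, higher in both mutant libraries, at a log2 fold change of 1.00 ± 0.53 against 0.03 ± 0.14 for Egfl7. Mir126b lies opposite it on the other strand, and Mir451b opposite Mir451, so the limit given for Mir1a-2 holds for them too. Other rows with a gene annotated opposite share this limit, among them Mirlet7f-1 (microRNA gene Gm24111), Mir133a-1 (Mib1) and Mir27b (Fancc). Mir27b had 47, 27, 58 and 31 reads with no separation. Mir145 had 11, 10, 13 and 2 reads and Mir143 had 4, 6, 9 and 3. Mir451, known from red cell precursors, had 1, 0, 3 and 13 reads, and Mir511, in an intron of the macrophage gene Mrc1, had 0, 1, 9 and 2. Both were too low to be tested; Ptprc, the pan-leukocyte gene, and Hemgn, an erythroid gene, were higher in mutant libraries (log2 fold changes 1.97 ± 0.18 and 3.67 ± 0.41, adjusted p = 0.0119 and 0.0252, edgeR), and their relation to these rows was not tested. Mir181b-1, of a family known from lymphocytes, had 55, 22, 27 and 11 reads (-1.11 ± 0.47), with both mutant libraries lower (-0.46 without wildtype 1), and Mir181b-2 had 23, 18, 16 and 13 (-0.56 ± 0.43). No row of the epithelial and EMT list (12 rows), the matrix list (7 rows), the Hox cluster list (6 rows) or the hepatocyte list (4 rows) reached 10 reads.

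Most Dlk1-Dio3 members had positive log2 fold changes, and none passed the threshold. This imprinted region expresses a long set of noncoding RNAs, Meg3, Rian and Mirg, and their microRNAs from the maternal chromosome. Of 36 members, 10 were tested, with 7 positive and 3 negative log2 fold changes and a median of 0.46. The 55 tested members elsewhere had 18 positive, 37 negative and a median of -0.23. Mir300, Mir758 and Mir341 had enough reads for the test only in their mutant libraries, so their positive sign follows in part from the filter. Over all 36 members without that filter, 27 were positive and 9 negative. The 36 rows summed to 12.6 and 13.0 CPM in wildtype libraries, and in mutant libraries to 20.6 and 15.0 CPM. Mir300 had 6, 1, 16 and 9 reads (1.72 ± 0.71; 3.28 without wildtype 1 and 1.06 without wildtype 2), Mir758 had 5, 7, 20 and 11 (1.24 ± 0.54), Mir341 had 5, 8, 23 and 9 (1.15 ± 0.57), and Mir496 had 26, 13, 16 and 6 (-0.92 ± 0.51). Meg3, Rian and Mirg were at 0.32 ± 0.19, 0.07 ± 0.13 and 0.28 ± 0.23, and Dlk1, the paternally expressed growth factor gene, at 0.93 ± 0.30; none passed the threshold (adjusted p 0.575 to 0.985, edgeR).

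All 6 tested X-linked members had negative log2 fold changes (median -0.44, 0 past the threshold). Over all 15 X-linked members without a filter, 5 were positive and 10 negative, with a median of -0.29. The 15 X-linked members summed to 11.02 and 8.90 CPM in wildtype libraries, and in mutant libraries to 6.16 and 8.90 CPM. Xist, which marks the inactive X chromosome, was at 2047, 2317, 2659 and 13.3 CPM. Mutant 2 differed from the others in it. Y-linked genes were at 593 CPM in mutant 2 and 4.54 CPM in wildtype 2, so genotype and sex markers both differ within pair 2. The part of this in the X-linked rows, the pair 2 ratios and the blocked fit was not tested.

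The other named rows were spread over many genes. Mir16-1 had 128, 57, 100 and 53 reads, in an exon of the noncoding gene Dleu2, and Mir15a, in an intron of the same gene, had 12, 15, 16 and 17. Mir1894, in an exon of Ppp1r10, had 55, 64, 77 and 62 reads, and Mir568, in an exon of the transcription factor gene Zbtb20, had 40, 44, 89 and 32. The groups overlapped in all 4 rows. Mir99a had 34, 32, 20 and 18 reads, lower in both mutant libraries (-0.85 ± 0.40), and Mir1949 had 6, 8, 18 and 15, higher in both (1.15 ± 0.53). Mir7-1, in an intron of Hnrnpk, had 14, 11, 20 and 12 reads and Mir1188, in an intron of Rian, 20, 10, 47 and 11. Mir210, known as a hypoxia-induced microRNA, had 13 reads in all and Mir128-1, known from neurons, had 11. None of these rows passed the threshold.

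Summed by seed, the 9 rows with GAGGUAG were at 63.5 and 35.9 CPM in wildtype 1 and 2, and 29.8 and 20.4 CPM in mutant 1 and 2, sums that rest mostly on Mirlet7a-1. The 5 rows with ACAUUCA were at 6.34, 3.47, 2.64 and 2.26 CPM, and the 4 with GUAAACA at 19.7, 14.2, 13.2 and 11.6 CPM. In these 3 families both mutant sums lay below both wildtype sums, as the levels of 16.3% of all genes did. The 4 rows with AGCAGCA were at 7.83, 5.36, 5.37 and 5.51 CPM, where wildtype 2 and the mutant libraries were alike. The remaining seeds with 4 members, GUCAGGC (Mir344 rows; 1.44, 1.20, 1.98 and 0.777 CPM) and AGUGCAA (Mir130a, Mir130b, Mir301 and Mir721; 0.905, 1.64, 1.01 and 0.847 CPM), had overlapping groups. The highest library was wildtype 1 for 25 of the 65 tested rows, wildtype 2 for 13, mutant 1 for 20 and mutant 2 for 7. The lowest was wildtype 1 for 16, wildtype 2 for 14, mutant 1 for 12 and mutant 2 for 23.

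Members were set beside their host genes where both could be tested. A host row existed for 115 members, in 89 hosts, and both were tested for 40 members in 34 hosts. Host log2 fold changes ran from -0.29 to 1.15, with 1 of 34 beyond 0.5 either way (Slc25a47, host of Mir345, with 77 reads). Member values ran from -1.12 to 1.66, with 16 of 40 beyond 0.5. Mir335, in an intron of the imprinted gene Mest, had 114, 27, 57 and 19 reads (-0.99 ± 0.55; 0.21 without wildtype 1) while Mest was at -0.08 ± 0.17. Mir1931, in an intron of the kinase gene Cdk17, had 8, 9, 33 and 12 reads (1.25 ± 0.51) while Cdk17 was at 0.03 ± 0.13. Mir3109, in an intron of Anxa2, had 13, 3, 50 and 8 reads, with overlapping groups. Over the 115 members with a host row, the median member had 0.660% of the reads of its host. The share was not low everywhere, at 88.3% for Mir345 and 28.2% for Mir16-1.

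**Figure D4:**
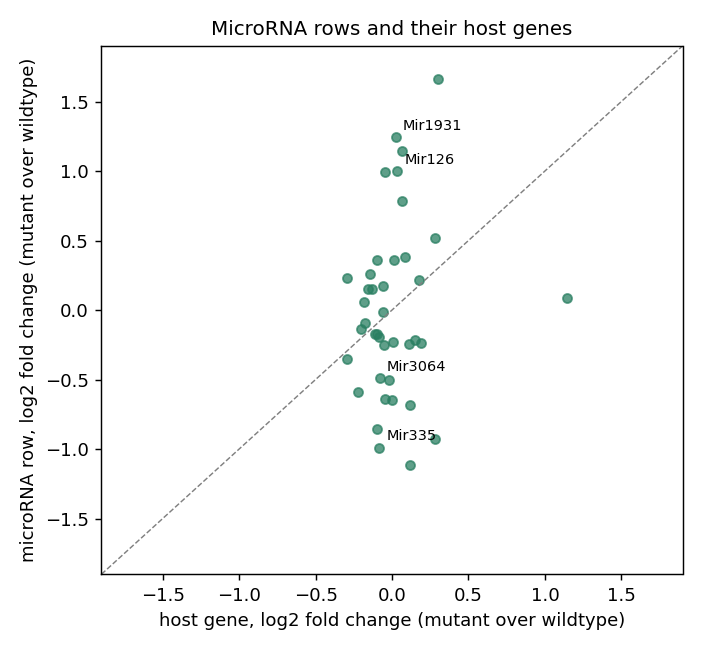
Log2 fold change of the host gene (x axis) and of the microRNA row (y axis) for the 40 members tested together with their host, the dashed line marking equal values. Hosts lay between -0.29 and 1.15 and microRNA rows between -1.12 and 1.66.

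The genes that make and use microRNAs did not pass the threshold. Of 26 pathway genes 24 were tested, 12 with positive and 12 with negative log2 fold changes, and 0 were past an adjusted p of 0.05 or an unadjusted p of 0.05 by edgeR. Drosha was at 87.2 ± 3.13 CPM in wildtype and 105 ± 18.6 in mutant libraries (0.27 ± 0.15), and Dgcr8 at 89.9 ± 5.33 and 88.3 ± 0.348 (-0.03 ± 0.13). Xpo5 was at 81.6 ± 3.83 and 93.0 ± 3.82 (0.19 ± 0.13), and Dicer1 at 264 ± 4.62 and 276 ± 46.2 (0.06 ± 0.15). The extremes were Prkra, a partner of Dicer1, at -0.36 ± 0.17 and Ago2, listed under its older symbol Eif2c2, at 0.29 ± 0.13. The highest levels were those of Ddx5 and Ddx17, the RNA helicases of the Drosha complex, at 994 ± 94.8 and 818 ± 61.2 CPM in wildtype libraries, then the splicing factor Srsf3 at 570 ± 24.4 CPM. Lin28a had 13 reads in all.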

How the data were processed

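The authors deposited raw read counts by gene symbol (2 wildtype and 2 mutant libraries) and an edgeR table. Per the submitters' processing notes the tools were Bowtie2, TopHat2, SAMtools, HTSeq and edgeR with mm10; for versions, annotation and strand the sources used here give nothing. The authors' deposited table gives log2 fold changes and log2 CPM, likelihood ratio scores, p-values and, for some rows, linear fold ratios; its sign (wildtype over mutant) was found by comparison with the counts and turned. Rows that name no gene were left out. Their shares were taken of all entries in a library, those in genes included. Per library, 51.8% to 54.4% were assigned to no counted feature, 0.187% to 0.210% were ambiguous and 16.1% to 17.0% had several alignments.

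Genes passing filterByExpr (14316) were scaled by TMM and tested with edgeR 4.0.16 quasi-likelihood, genotype only, with Benjamini-Hochberg adjustment over all genes and a threshold of 0.05; SE is the size of the log2 fold change over the root of F. CPM uses TMM-scaled totals. DESeq2 1.42.0 and other settings were alternatives. The labels do not say that the libraries came from separate embryos. Mutant 1 and 2 were not repeats of the same tissue, with Y-linked sums of 0 and 593 CPM and Xist at 2659 and 13.3 CPM. The p-values reflect only how far these 4 libraries differ, and the spread between the wildtype libraries can be technical. The series text names 2 pairs of littermates, and deviations of same-numbered libraries correlated at 0.144 over 14316 genes, so the blocked value is given where it changes a call. The model was checked on simulated data. Positions and hosts came from GENCODE M21, sequences from RefSeq.

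Members and lists were chosen with earlier results of these data known. Named members were those past the threshold, the 12 with most reads, and up to 6 for each direction of smallest p with separated libraries. The 2 most read of each list and those in the authors' table were named too. Members outside this rule were added after their values were seen. They were Mir3109, Mir451, Mir511, Mir496, Mir1a-2, Mir1b, Mir15a, Mir19a, Mir340, Mir345, Mir98 and further let-7 rows.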

Additional observations from a re-analysis of the deposited data

How the results depend on the processing

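The count of members past the threshold was 0 of 65 with all libraries and stayed 0 with RLE or upper-quartile scaling, a CPM of 5 or more in 2 libraries, DESeq2 and the edgeR likelihood ratio test. It was 1 (Mirlet7a-1) with the replicate block (adjusted p = 0.00200, edgeR), without a filter, and, in alternatives chosen after seeing the data, without a filter with the block and by DESeq2 with the block. Leaving out each library in turn gave 0 to 2: without mutant 1 it was Mirlet7a-1 (1 of 79, where 1.24% of all genes were called), and without mutant 2 Mirlet7a-1 and Mir3109 (2 of 95, where 3% were called); a lone library was then assumed to vary like the other group. The median log2 fold change of the tested members (-0.20) was -0.21 with the replicate block. Over the 5 rows with a CPM of 5 or more it was -0.48. Over the leave-outs it ran from -0.19 to 0.065, with -0.028 without mutant 2. The leave-out fits test other rows, 78 without wildtype 1. Over the same 65 rows the median was -0.03 and -0.25 without wildtype 1 and 2, and -0.26 and -0.05 without mutant 1 and 2. The log2 ratio of the summed members (-0.31) was -0.19 without Mirlet7a-1 and between -0.45 and -0.16 without any 1 library. Of 26 named members with leave-out fits 18 kept their sign in each of them, and for 18 some single library moved the value by over 1.5 times (wildtype 1 for 14, wildtype 2 for 9, mutant 1 for 12, mutant 2 for 9); Mir128-1, Mir143 and Mir210 were fitted only without a filter. Over the leave-outs Mir16-1 ran from -0.74 to 0.19, Mir208b from -0.89 to 0.010, Mir335 from -1.62 to 0.21 and Mir1894 from -0.064 to 0.39, each turning sign without wildtype 1 (Mir1894 also, at -0.028, without mutant 2). Mir1188 ran from -0.14 to 1.27, Mir568 from -0.11 to 0.68 and Mirlet7f-1 from -0.63 to 0.0083, turning sign without mutant 1, and Mir27b from -0.072 to 0.49, turning sign without wildtype 2. The cause was not tested. With 2 libraries a group, an exact permutation test of 1 value cannot go below 0.33. Most members had under 100 reads, and 119 of 184 were too low to be tested.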
